A study of Mus musculus with 2 samples.

Results

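Collagen chain genes were taken as every gene whose name in the scanner files has the form Col, a type number, the letter a and a chain number. This gave 44 of 27478 named genes on the array, read by 69 probes in 78 spots. They were measured in tibialis anterior muscle of the lower leg from adult male C57BL/6 mice, on 2 single-colour arrays. One array carried muscle RNA with a transgene for activated Notch2 (the intracellular part of the receptor, N2ICD, labelled N2ICD-mTG), and the other carried control muscle RNA. The labels do not give the promoter that drives the transgene, the genotype of the control beyond that word, or whether each RNA came from 1 animal or several, and the series title places Notch2 in myofibers. The question was which transcripts activated Notch2 changes in this muscle. With 1 array per group no p-value was computed, and genotype, animal and array cannot be told apart.

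Collagens are secreted or membrane-bound proteins built of 3 chains that wind around each other, and each chain carries long runs in which glycine recurs in Gly-X-Y triplets. Fibrillar collagens form the rope-like fibrils of the connective tissue around muscle fibres, type IV forms the mesh of the basement membrane on the fibre surface, and type VI forms beaded filaments that join both. Most collagen RNA in skeletal muscle comes from fibroblasts of the interstitium. In mouse muscle stem cells, Col5a1 and Col5a3 are known as genes that Notch activates.

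Of the 69 probes, 2 lie wholly in such a repeat, seen as GG at every 9 bases, in 6 of 6 places. They are shown because one of them gave the only reading of Col15a1. Capitals mark the first 2 bases of each glycine codon, and of all 55681 probes on the array 6 carried the pattern. Both sequences are those of the scanner files, with mm9 coordinates on the plus strand, at chr4:47283786-47283845 for Col15a1 and chr3:130270497-130270556 for Col25a1.
Col15a1: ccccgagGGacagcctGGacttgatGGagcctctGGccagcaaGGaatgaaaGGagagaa
Col25a1: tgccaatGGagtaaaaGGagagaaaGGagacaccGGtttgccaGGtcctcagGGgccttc

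The Col9a1 and Col5a3 probes are shown because they carry the largest differences in each direction among the collagens. Col9a1 had a probe at position 964 of its transcript (chr1:24201545-24201604, plus strand) and another at position 3435, whose last 30 bases (chr1:24259155-24259184) hold the polyadenylation signal AATAAA in capitals. For Col5a3 the first 30 bases of its probe are given (chr9:20574622-20574651, minus strand).
Col9a1, position 964: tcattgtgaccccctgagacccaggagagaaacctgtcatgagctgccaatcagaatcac
Col9a1, position 3435: tacattcAATAAAattggtgcttaaaatct
Col5a3, position 5928: tctgtggtctatttaatttgcttccttctg

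Of the 44 genes, 25 were well above background on both arrays, 2 on the control array alone and 17 on neither. The 17 were Col10a1, Col11a2, Col13a1, Col17a1, Col19a1, Col23a1, Col24a1, Col27a1, Col28a1, Col2a1, Col4a3, Col4a5, Col6a4, Col6a5, Col6a6, Col8a1 and Col9a3, and several of these are known from cartilage, kidney or skin. Their probes had signals from 5.42 to 24.4 on the N2ICD array and from 5.12 to 26.8 on the control array. Of the 25 measured genes, 19 rested on 1 probe and 6 on several, and no collagen spot was saturated. Signals are given as the scanner software made them, before scaling, in arbitrary units. Differences are log2 values, N2ICD minus control, after each array was scaled to its 75th percentile, a signal of 190 for N2ICD and 169 for control. The error given is the SD of such a difference between repeated spots of one probe at the same signal level, divided by the root of the number of spots, and holds no spread between animals. Signals of different probes cannot be ranked against each other, since probes bind with unlike strength.

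The targeted gene was read by 2 Notch2 probes. One had a signal of 221 in N2ICD and 6.01 in control, where it was not well above background, and the other 179 in N2ICD and 189 in control. The Notch target Hes1 had 348 in N2ICD and 55.4 in control. Which of these Notch2 positions the transgene carries is not in the labels.

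Most collagen genes were lower in the N2ICD muscle by a small amount. Of 25 measured, 22 lay below 0, against 49.3% of all 13660 genes measured, and the collagen median was -0.40 against a median of 0.01 over all genes. None was at least 2-fold lower, where 0.886% of all genes were, and 1 was at least 2-fold higher (Col9a1), where 1.43% of all genes were. At 1.5-fold, 3 collagens were lower, against 4.83% of all genes, and 2 were higher, against 5.09%. The difference was larger than 2 SD of the spot noise in 16 collagens on the lower side, against 21.2% of all genes, and in 2 on the higher side, against 24.8%. That SD falls from 0.25 for the dimmest probes to 0.05 for the brightest, so bright genes pass on smaller differences. The shares of all genes are not matched for signal level. Scaling to the added E1A control RNAs instead moved every gene up by 0.48, so that 5 of the 25 collagens lay below 0 and 22 lay below the median of all genes, which was then also 0.48. All directions given here are therefore relative to the typical gene on the array. In whole muscle, fewer cells of a type and less RNA per cell cannot be told apart.

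**Figure D1:**
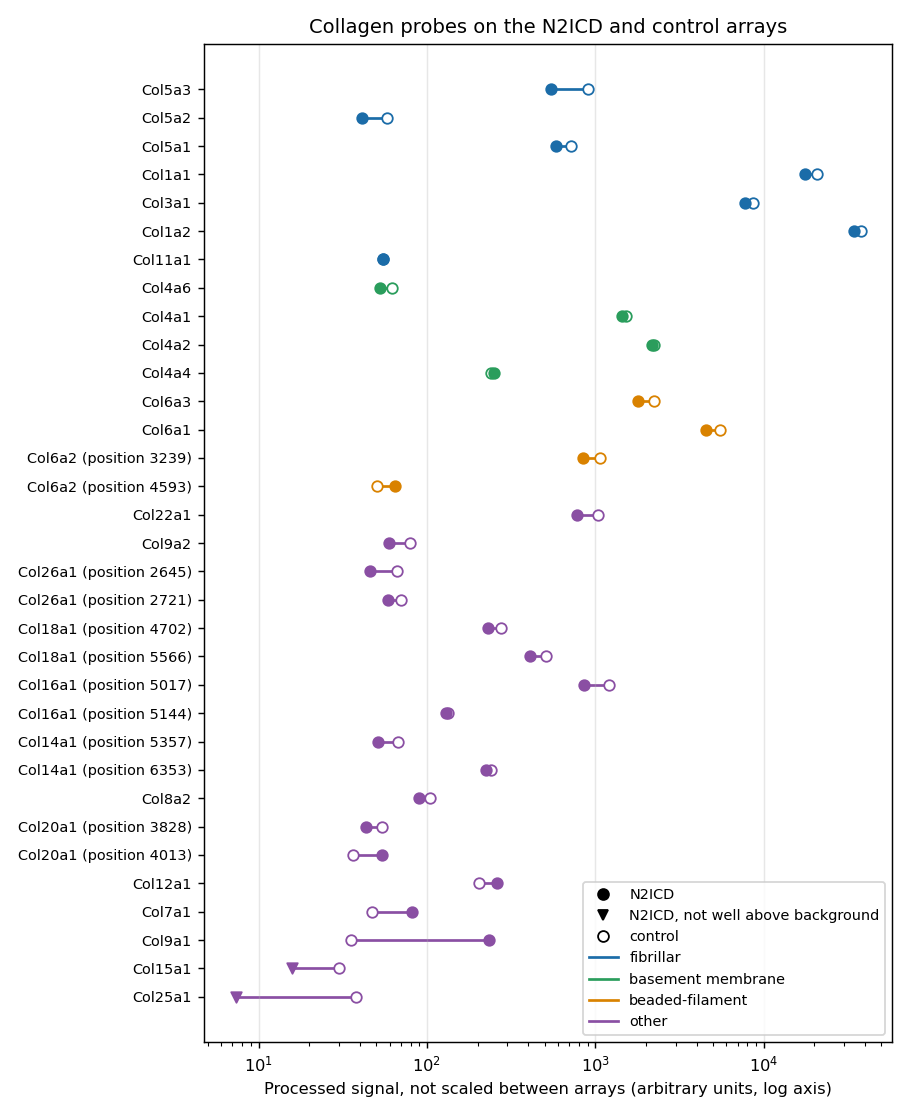
Processed signal before scaling (arbitrary units, log axis) of each collagen probe well above background on at least 1 array, with N2ICD as filled and control as open symbols and colours for the 4 classes. Most filled symbols lie left of the open ones, while Col9a1 lies far to the right (232 in N2ICD, 35.4 in control), and the triangles of Col15a1 and Col25a1 mark N2ICD signals not well above background.

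Among the fibrillar collagens all 7 measured genes lay below 0, against 49.3% of all genes, with a median of -0.41. By more than 2 SD of the spot noise 6 of them were lower, against 21.2% of all genes. Col1a1 (chromosome 11, 94813115 to 94813174, mm9), the major chain of type I collagen, had a signal of 17537 in N2ICD and 20689 in control, a difference of -0.41 ± 0.05. Its partner Col1a2 had 34355 in N2ICD and 37891 in control (-0.31 ± 0.05). Col3a1, whose type III fibrils are common in the sheaths of muscle, had 7708 in N2ICD and 8603 in control (-0.33 ± 0.05). The gap between both type I chains was -0.10 with a spot SD of 0.08.

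Type V collagen sits in the core of type I fibrils and sets their diameter. Col5a3 (chromosome 9, 20574592 to 20574651) had the lowest value of all 25 collagens, with a signal of 542 in N2ICD and 900 in control, a difference of -0.90 ± 0.08 or 1.87-fold lower. Col5a2 had 41.1 in N2ICD and 58.1 in control (-0.67 ± 0.25). Col5a1 had 588 in N2ICD and 720 in control (-0.46 ± 0.08). The gap between Col5a3 and Col5a1 was -0.44 with a spot SD of 0.12, whereas Col5a2 lay within its own large spot noise of both. Col11a1, a relative of the type V chains best known from cartilage, had 54.6 in N2ICD and 54.5 in control, and its difference of -0.17 ± 0.25 was within the spot noise.

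The basement membrane class had a median of -0.23 over 4 genes, all below 0, against 49.3% of all genes. Of these 4 genes 2 were lower by more than 2 SD of the spot noise, against 21.2% of all genes. Col4a1 and Col4a2 together make the common type IV trimer of muscle. The Col4a1 probe was printed in 10 spots, and the 9 kept ones ran from 1325 to 1554 with a median of 1422 in N2ICD, and from 1459 to 1574 with a median of 1535 in control, so that the raw signals overlapped. After scaling, all 9 spots lay below 0, from -0.38 to -0.08, with a mean of -0.26 and an SD of 0.09 between spots. Col4a2 had 2179 in N2ICD and 2223 in control (-0.20 ± 0.05). The 2 chains, which are transcribed in opposite directions from starts 21 bases apart on chromosome 8 (RefSeq, GRCm38.p6), differed by 0.06 with a spot SD of 0.06. Col4a6 had 52.8 in N2ICD and 61.9 in control (-0.40 ± 0.25), and Col4a4 249 in N2ICD and 241 in control (-0.12 ± 0.13). Both differences were within 2 SD of the spot noise, and their other probes (1 for Col4a6, 2 for Col4a4) were not well above background on either array.

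The beaded-filament class held 3 measured genes, the 3 classical chains of type VI collagen, whose mutation causes muscle disease in people. Col6a1 (chromosome 10, 76171538 to 76171597) had a signal of 4510 in N2ICD and 5485 in control (-0.45 ± 0.05). Col6a3 had 1801 in N2ICD and 2221 in control (-0.47 ± 0.05), which lay within the spot noise of Col6a1. Col6a2 was read by 2 probes that went opposite ways. The probe at position 3239 had 845 in N2ICD and 1069 in control (-0.51 ± 0.08). The probe at position 4593 of another transcript model had 64.4 in N2ICD and 50.7 in control (0.17 ± 0.25). Their mean of -0.17 ± 0.13 stands for the gene in the counts, while the brighter probe is near the values of both partner chains.

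**Figure D2:**
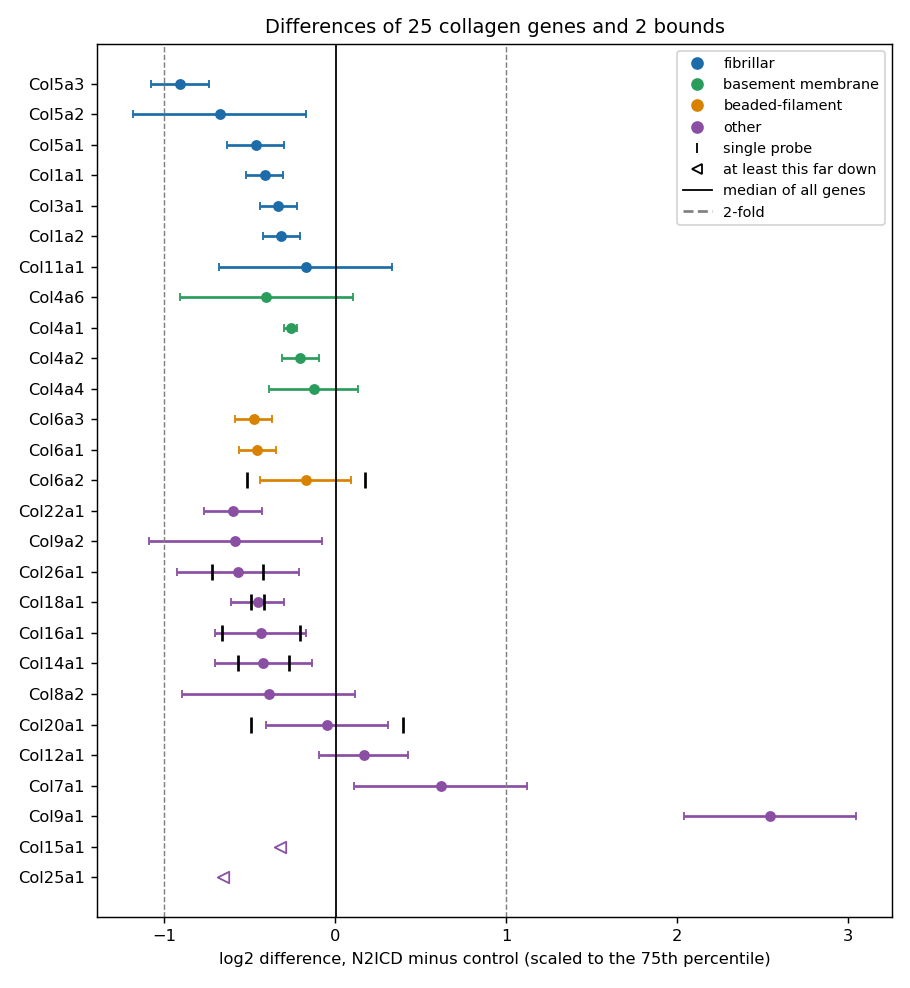
Log2 difference, N2ICD minus control, for the 25 collagen genes measured on both arrays, as points with bars of 2 SD of the spot noise, ticks for the single probes of genes with several, and open triangles for the 2 genes given as bounds. The 4 class colours show 7 fibrillar, 4 basement membrane and 3 beaded-filament genes, all left of the median of all genes, while Col9a1 stands at 2.54.

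Fibril-associated collagens attach to the surface of fibrils and are interrupted by non-helical stretches. Of 9 such genes 7 were measured, with a median of -0.42, and 5 lay below 0, against 49.3% of all genes. Col22a1, a collagen of the junction between muscle and tendon, had 774 in N2ICD and 1038 in control (-0.60 ± 0.08, 1.51-fold lower). Col14a1 had a mean difference of -0.42 ± 0.14 over probes at -0.57 and -0.27. Col16a1 had -0.43 ± 0.13 over probes at -0.66 (signals of 861 in N2ICD and 1210 in control) and -0.20, and its other 2 probes were not above background. These 3 genes and Col9a2 were lower by more than 2 SD of the spot noise, against 21.2% of all genes. Both measured probes of Col14a1 and of Col16a1 pointed down, but the Col16a1 probe at -0.20 (spot SD of 0.25) lay within that noise. Col12a1, abundant in tendon and fascia, had 259 in N2ICD and 205 in control (0.17 ± 0.13), within that noise. Col20a1 had probes at -0.49 and 0.40, whose mean of -0.04 says little about the gene.

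Col9a1, a chain of the fibril-associated type IX collagen of cartilage, was the one collagen at least 2-fold different. Its probe at position 3435 had a signal of 232 in N2ICD and 35.4 in control, well above background on both arrays, a difference of 2.54 ± 0.25 or 5.82-fold higher. Its probe at position 964 had 12.1 in N2ICD and 6.39 in control and was not well above background on either. After normexp background correction, which here adds an offset of 50 to every signal, the difference of the first probe was 1.34. An added constant makes log2 differences of dim signals smaller in size. The control signal of that probe lies near the lowest well above background on that array, 25.4. The scanner software put an error of 24.0 on the N2ICD signal and of 6.88 on the control signal of that spot. The authors' deposited table gives the same probe a fold change of 5.886, up in N2ICD, and lists 1 Col9a1 probe.

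Type IX collagen is a trimer of the products of Col9a1, Col9a2 and Col9a3. Col9a2 had 59.5 in N2ICD and 79.1 in control, a difference of -0.58 ± 0.25, so that the 2 chains stood 3.12 apart with a spot SD of 0.36. Col9a3 was above background on neither array, with 8.05 in N2ICD and 6.07 in control. Col19a1, the neighbour of Col9a1 on chromosome 1, was above background on neither array in 2 probes. Of the 6 cartilage markers looked at, only Sox9 was measured on both arrays (0.16), Acan was above background on the N2ICD array alone (signals of 38.1 in N2ICD and 22.5 in control), and Matn1, Matn3, Cnmd and Hapln1 were above background on neither, with signals from 5.61 to 6.68 in N2ICD and from 5.36 to 6.43 in control. Of the partner chains of Col9a1, Col9a2 was thus not higher in N2ICD, and Col9a3 was too dim for its difference to be measured.

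RefSeq lists 2 starts for Col9a1 on chromosome 1, 17593 bases apart, and the gene is known to make a long chain and a short one that lacks the large N-terminal domain. The 100 bases before each start are given because either start could give the RNA read at position 3435, from RefSeq on GRCm38.p6, plus strand, at chr1:24177510-24177609 and chr1:24195103-24195202. Capitals mark matches to TGGGAA, the core of the site of the Notch partner RBPJ, and to CCAAT, the NF-Y box, on either strand.
Col9a1, upstream start: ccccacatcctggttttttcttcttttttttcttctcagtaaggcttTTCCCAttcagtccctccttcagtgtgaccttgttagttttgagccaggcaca
Col9a1, downstream start: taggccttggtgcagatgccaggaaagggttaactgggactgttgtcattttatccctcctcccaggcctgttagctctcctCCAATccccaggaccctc

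Promoter windows from 250 bases before to 50 bases after the start were held for 35 of the 44 collagen genes, in 38 windows. TGGGAA, on either strand, occurred in 12 of the 38 (31.6%), against 25.6% of all 32851 windows. CCAAT occurred in 13 of them (34.2%), against 37.4% of all. GGGCGG, the Sp1 box, occurred in 23 of them (60.5%), against 35.7% of all. Those windows belong to 22 genes. Among them were Col5a3, Col5a1, Col1a2, Col4a1 and Col4a2, which were lower, and Col7a1, which was higher. Others, such as Col11a2 and Col27a1, were above background on neither array. A link between the Sp1 box and the differences was not tested. These are letter matches in a window, with no binding measured. The windows of Col5a1 and Col5a3 do not hold the letters TGGGAA.

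Of the remaining collagens, Col18a1, a basement membrane collagen of vessels that carries the endostatin domain, had 2 probes at -0.41 and -0.49. The brighter one had 409 in N2ICD and 511 in control, and the gene's difference was -0.45 ± 0.08. Col26a1 had probes at -0.72 and -0.42, which overlap on chromosome 5 for nearly their whole length, and a mean of -0.57 ± 0.18. Col8a2, a network-forming chain, had 89.5 in N2ICD and 104 in control (-0.39 ± 0.25), within the spot noise. Col7a1, the anchoring fibril collagen of skin, went the other way with 81.4 in N2ICD and 47.1 in control, a difference of 0.62 ± 0.25 or 1.54-fold higher. It and Col9a1 were the 2 collagens higher by more than 2 SD of the spot noise.

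Both genes seen on the control array alone are given as bounds, with the N2ICD level set to the lowest among probes well above background there, or to the dim probe's own where that was greater. Col15a1, a collagen of the outer basement membrane of muscle fibres and capillaries, had 15.7 in N2ICD, not well above background, and 30.1 in control at the probe printed above. By this rule it was at least 1.25-fold lower, a bound of -0.32 that lies within 2 SD of the spot noise of dim probes (SD of 0.25). The other 2 Col15a1 probes were not well above background on either array, with 5.83 and 7.64 in N2ICD and 16.9 and 17.6 in control. Col25a1, a transmembrane collagen that developing muscle needs for its innervation, had 7.31 in N2ICD and 37.9 in control at position 937, and was at least 1.57-fold lower. Its other 3 probes, the one printed above among them, were above background on neither array. No collagen was detected in N2ICD only. Among all named genes, 489 were detected in N2ICD only and 480 in control only.

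**Figure D3:**
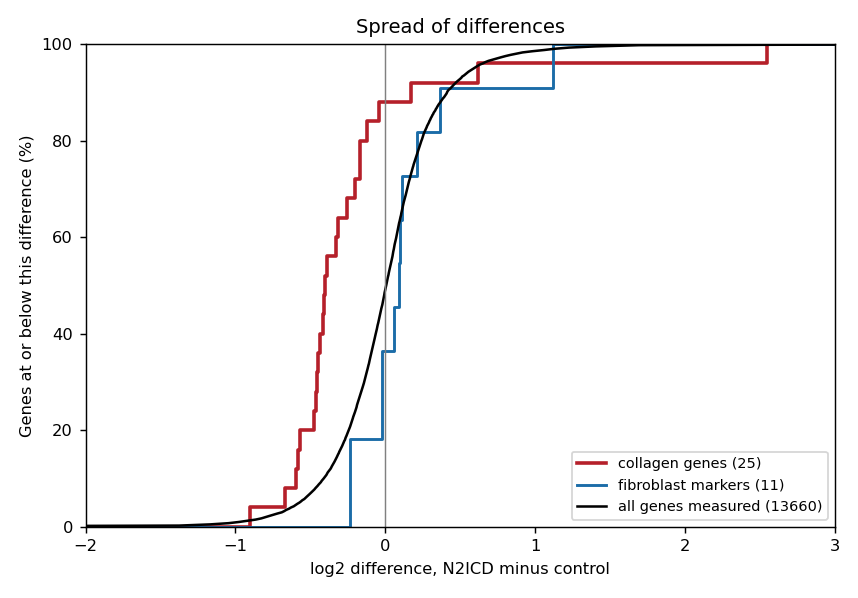
Cumulative share of genes (%) at or below each log2 difference, N2ICD minus control, for the 25 collagens in red, 11 fibroblast markers in blue and all 13660 measured genes in black. The collagen curve lies left of the curve of all genes at every value from -0.40 to 0, while the fibroblast markers lie near or right of it over most of the range.

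The genes that make, process, bind and break down collagen did not all share the collagen pattern. For collagen modification and secretion, 18 of 19 genes were measured with a median of -0.11, 10 below 0 (49.3% of all genes) and none 2-fold different. The prolyl hydroxylase subunit P4hb, a protein disulphide isomerase that acts on many proteins, had a signal of 4562 in N2ICD and 2805 in control (0.53 ± 0.05). The lysyl hydroxylase Plod2 had 36.8 in N2ICD and 47.0 in control (-0.52 ± 0.25), its chaperone Fkbp10 945 in N2ICD and 1204 in control (-0.52 ± 0.05), and the galactosyltransferase Colgalt2 55.9 in N2ICD and 69.9 in control (-0.49 ± 0.25). The collagen chaperone Serpinh1, which is largely specific to collagen, lay at -0.38 ± 0.05, near the collagen median, with 2188 in N2ICD and 2518 in control. It is named after its value was seen.

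For procollagen cleavage and cross-linking, 9 of 14 genes were measured with a median of -0.19, and 7 lay below 0, against 49.3% of all genes. By more than 2 SD of the spot noise 5 were lower, against 21.2% of all genes, and 2 were higher, against 24.8%. The lysyl oxidase relatives, which cross-link collagen, did not share a direction. Loxl2 had -0.66 ± 0.10 over 3 probes from -0.82 to -0.34, while Loxl3 had 59.5 in N2ICD and 33.3 in control (0.66 ± 0.25). Pcolce, which speeds the cleavage of procollagen, had 7860 in N2ICD and 8991 in control (-0.37 ± 0.05). Bmp1, which cuts off the C-terminal propeptide, lay at -0.26 ± 0.06. None of the 9 reached 2-fold.

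Of the genes of collagen breakdown 15 of 18 were measured, with a median of -0.19. Below 0 lay 14 of the 15, against 49.3% of all genes, and 3 were at least 2-fold lower, against 0.886%. By more than 2 SD of the spot noise 9 were lower, against 21.2% of all genes, and none was higher, against 24.8%. The other 6, Timp4 at -0.03 and Adamts1 at -0.01 among them, lay within that noise. The list holds proteases and also their inhibitors Timp1, Timp2, Timp3 and Timp4, so its counts are not of proteases alone. Timp1 (-0.62 ± 0.08), Timp2 (-0.13 ± 0.04) and Timp3 (-0.13 ± 0.05) were among the 9 lower genes. The gelatinase Mmp9 had a signal of 97.6 in N2ICD and 191 in control (-1.14 ± 0.04). The collagenase Mmp13 had 232 in N2ICD and 417 in control (-1.02 ± 0.13), and the membrane-bound Mmp14 had 38.6 in N2ICD and 70.8 in control (-1.05 ± 0.25). Those 3 proteases cut native or denatured collagen. The collagen uptake receptor Mrc2 followed at -0.78 ± 0.25, while the gelatinase Mmp2, made by fibroblasts, lay at -0.06 ± 0.08.

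Collagen receptors had a median of 0.00 over 7 of 9 genes, with Itga10 at 0.69 ± 0.18, Itga11 at -0.68 ± 0.08, Lair1 at -0.24 ± 0.25 and Ddr2 at -0.20 ± 0.13. Small leucine-rich proteoglycans, which coat collagen fibrils, had a median of 0.07 over 6 of 9 genes. Ogn was at least 2-fold higher among them, with 364 in N2ICD and 149 in control (1.12 ± 0.13), while Dcn lay at -0.23 ± 0.05, Fmod at -0.13 ± 0.05 and Kera at 0.10 ± 0.03. TGF-beta signalling, a main inducer of collagen genes, had all 16 genes measured and a median of 0.19. Above 0 lay 11 of them, against 50.7% of all genes, and 10 were higher by more than 2 SD of the spot noise, against 24.8%, while 3 were lower by that much, against 21.2%. The signal transducer Smad3 had 0.67 ± 0.13, Ltbp3, which binds latent TGF-beta, 0.67 ± 0.04 and the inhibitor Smad7 0.59 ± 0.13. The medians of these 6 lists ran from -0.19 to 0.19, above the collagen median of -0.40. Dcn and Lum also stand among the fibroblast markers, and Fmod and Kera among the tendon markers.

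**Figure D4:**
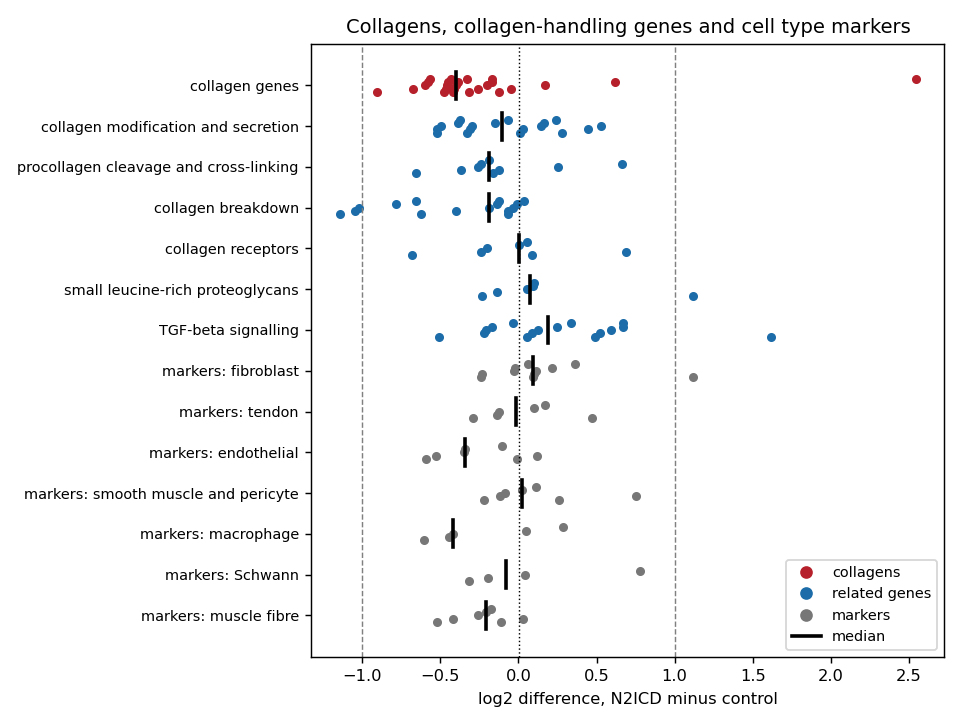
Log2 difference, N2ICD minus control, of each measured gene (points) with the median of its list (bars), for the collagens, 6 lists of related genes and 7 lists of cell type markers. The collagen median of -0.40 is nearer to those of the macrophage (-0.42) and endothelial (-0.34) markers than to that of the fibroblast markers (0.09). The macrophage markers did not share a direction, with 3 below 0 and 2 above.

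Markers of the cell types in the tissue were read beside the collagens. All 11 fibroblast markers were measured on both arrays, 7 of them above 0 (50.7% of all genes), with a median of 0.09 and a range from -0.24 for Cd34 to 1.12 for Clec3b. Pdgfra, the receptor that defines these cells, had 304 in N2ICD and 250 in control (0.11 ± 0.04). Clec3b, which binds plasminogen, had 729 in N2ICD and 298 in control. Gsn lay at 0.36 and Dcn at -0.23. The fibroblast markers thus had a median above that of all genes, and the collagens one below it.

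Endothelial markers had a median of -0.34, with 6 of 7 below 0, against 49.3% of all genes. They were led by Emcn at -0.59 and Kdr at -0.52, with Tek and Esam at -0.34 each. By more than 2 SD of the spot noise 3 were lower, against 21.2% of all genes. Macrophage markers had -0.42 over 5 of 6 genes. Csf1r at -0.61, Cd68 at -0.44 and Tyrobp at -0.42 lay below 0, and Adgre1 at 0.05 and Mrc1 at 0.29 above it. Tendon markers had -0.01 over 6 of 7, with Thbs4 at -0.29, Fmod at -0.13, Scx at 0.17 and Tnmd at 0.47. The endothelial and macrophage medians thus lay near that of the collagens, and the tendon median near that of all genes. The macrophage markers did not share a direction. Smooth muscle and pericyte markers had 0.02 over all 7, with Acta2 at -0.22, Pdgfrb at -0.12, Myh11 at 0.26 and Cspg4 at 0.75. Schwann cell markers had -0.08 over 4 of 5, with Sox10 at -0.32, Mbp at -0.19 and S100b at 0.78. The 7 muscle fibre markers were all well above background on both arrays, with a median of -0.21, Ckm at -0.52, Pvalb at -0.42, Myh4 at -0.26 and Atp2a1 at -0.21. Of these 7 markers 6 lay below 0, against 49.3% of all genes, and only Myh1 at 0.03 lay above it. By more than 2 SD of the spot noise 5 were lower, against 21.2% of all genes. The part of any of these cell types in the collagen differences was not tested.

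**Figure D5:**
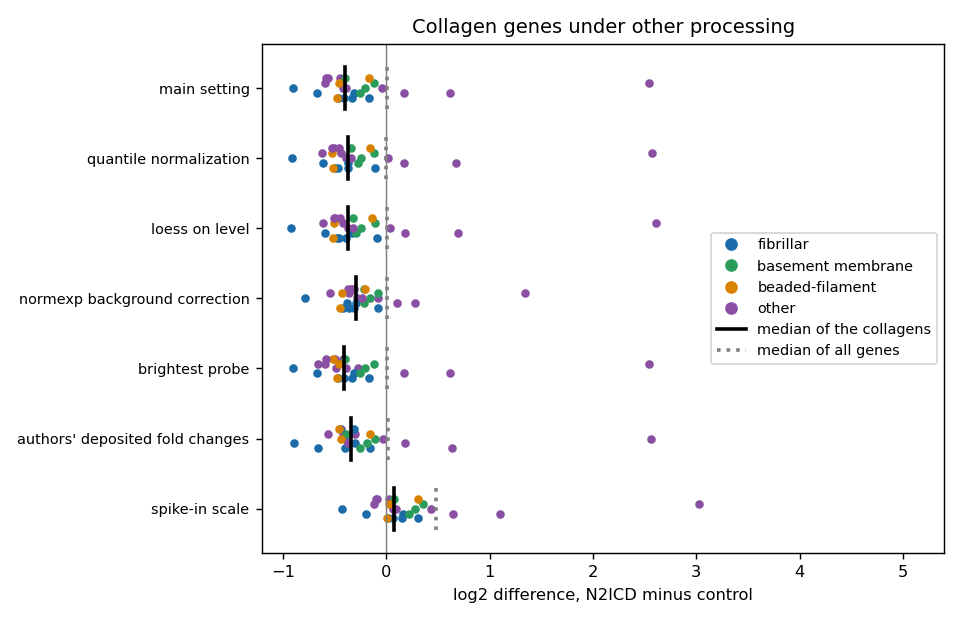
Log2 difference, N2ICD minus control, of the collagen genes (points, coloured by class) under 7 ways of processing the arrays, with black bars for their median and dotted bars for the median of all genes. The collagen median lies left of that of all genes in each, at -0.40 in the main setting and at 0.08 on the spike-in scale, where the median of all genes is 0.48.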

How the data were processed

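Total RNA of 1 N2ICD and 1 control muscle sample was labelled with Cy3 and hybridised to 1 array each, per the labels' protocols. Per the file headers, the authors deposited spot intensity values from Feature Extraction (Agilent, 10.10.1.1), with background and spatial trend removed array by array and no scaling across arrays. The design's coordinates, as deposited, use mm9. A further table the authors deposited has an unsigned fold (ratio), a direction, intensity values and a log2 level for each array. The sources used here do not say how that table was computed. Flags are used as deposited (above background, outlier, saturated, control type).

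Processed intensities were set on a log2 scale after subtraction of the 75th percentile of 59305 non-control spots. After 215 outlier spots were left out, spots were averaged per probe, and a gene was the mean over those of its probes that both arrays showed well above background. On the N2ICD array 24982 spots were well above background and on the control array 24916. The number of arrays limits the precision. Genes that are no collagens were named through RefSeq accessions where possible. Collagens kept their name in the scanner files, which RefSeq matched in 72 of 78 spots with 0 changes. Spot noise came from 268 probes with repeated spots, in 4 groups of level. The members, lists and alternatives were chosen with earlier results of these data known. Every measured collagen is named, and of each other list the members past 2-fold and the 4 outermost were named, except 2 list members that are not reported here. A few other genes (Serpinh1, Mmp2, Timp1, Timp2, Timp3, Timp4, Adamts1, Adgre1 and Pdgfra among them) were named for their role or place after their values were seen. Alternatives were normexp background correction (offset 50), quantile normalization, loess on level (span 0.3), a scale set by 7 E1A spike-in probes, looser or no filters on dim probes, the brightest probe, the authors' fold changes and a threshold of 1.5-fold. The steps were tested on simulated data. Calculations used limma 3.58.1 under R 4.3.3, and pandas 2.3.3, statsmodels 0.14.6 and numpy 2.4.6 under Python 3.11.15.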

Additional observations from a re-analysis of the deposited data

How the results depend on the processing

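The collagen median was -0.40 and stayed below the median of all genes under each alternative run. On the spike-in scale, which moves all genes up by 0.48, the medians turned to 0.078 for all collagens, 0.068 for fibrillar, 0.25 for basement membrane, 0.0241 for beaded-filament and 0.0609 for other collagens, with 5 below 0, 2 at least 2-fold higher (Col7a1 beside Col9a1) and Col9a1 at 3.02. With no filter on dim probes all 44 genes counted, and the median was -0.19, that of other collagens -0.10, with 37 below 0, 2 at least 2-fold higher, 5 at least 2-fold lower and Col9a1 at 1.64. That construction adds probes not well above background. Normexp background correction gave Col9a1 1.34. Probes above background on at least 1 array added Col15a1 and Col25a1 and so gave 2 genes at least 2-fold lower. A threshold of 1.5-fold gave 2 higher and 3 lower. Quantile normalization, loess, the brightest probe and the authors' fold changes moved none of these medians or counts by more than the spot noise of 0.14 or 1.5 times. Of the 24 other genes, 5 moved by more than that with the brightest probe, 6 with normexp and 0 with loess. Signal over background limits Col9a1, Col5a2, Col9a2 and the other dim probes, whose spot noise was 0.25. No paired analysis was possible because each group has 1 sample, and for the same reason no sample could be left out. Normexp was run with an offset of 50, above the Col9a1 control signal of 35.4. Adding a constant makes log2 differences of dim signals smaller in size, so such a move is built into this setting. The shares of the offset and of the correction itself in the move were not tested apart.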

Other observations

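The authors' deposited table gives Col22a1 a further probe that the scanner files call TC1681647, so that it is no collagen by name there. It lies at chromosome 15, 71699345 to 71699404 (mm9), and had a signal of 145 in N2ICD and 133 in control, a log2 difference of -0.04 ± 0.13, where the probe named Col22a1 had -0.60. In the authors' deposited table the 2 probes have folds of 1.021 and 1.495, both down.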
